A study of Mus musculus with 15 samples.

Results

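The genes described here are 36 genes of sterol and fatty acid synthesis, with the proteins that control both pathways and those that export cholesterol. They were picked by gene symbol for their known roles: 7 enzymes of the mevalonate pathway, 11 enzymes of the later sterol steps, 6 regulators, 9 enzymes of fatty acid synthesis and desaturation, and 3 genes of cholesterol efflux. Each symbol matched 1 row among the 53379 genes of the deposited table, and all 36 were among the 12673 genes that reached 10 normalized reads in 3 or more libraries and were tested.

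RNA was sequenced from mouse fetal liver cells that a retrovirus carrying the oncogene MLL-ENL had transformed, before and after loss of the transcription factors C/EBPα and C/EBPβ. There were 5 groups of 3 libraries. The parental cells, labelled wild-type and called WT here, carry floxed Cebpa and Cebpb alleles, and their labels name no added gene. The dKO cells (Cebpa KO, Cebpb KO) were obtained with TAT-Cre and express GFP from a virus, and the LAPS cells, called dKO-LAP* here, are dKO cells that express GFP and the rat C/EBPβ isoform LAP*. WT and dKO cells were taken from 2 clones of different mice, C1 and C2, and dKO-LAP* cells from C1. The paper describes its dKO clones as rare survivors of the Cre treatment, all of which expressed C/EBPε protein. Loss of Cebpa and Cebpb, survival of the treatment and the GFP virus therefore cannot be told apart. The effect of the deletion below means the difference between dKO and WT cells. All cells grew with mouse IL-3 at 10 ng/ml. Each group is 1 cell line, whose 3 RNA samples were isolated at different times, so p-values measure the spread between those samples and not between animals. No label gives the times.

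Reads on genes numbered 9212237 to 13613500 per library. Cebpa had 903 to 2267 normalized reads in the WT libraries and none in the dKO libraries, and Cebpb had 1353 to 1634 and none. In dKO-LAP* cells Cebpb had 2538 to 4216 normalized reads, which may include reads of the rat sequence, and 1 library held 1 read of Cebpa. The 10 markers of myeloid progenitors all had reads, with a summed level of 62476 to 81457 normalized reads in the WT, 117316 to 168606 in the dKO and 137461 to 161267 in the dKO-LAP* libraries. Mpo and Elane, genes of granule proteins, carry most of this sum. The other 8 markers summed to 23093 to 29508 in C1 WT and 26091 to 26695 in C1 dKO libraries, which overlap, and to 19863 to 24429 in C2 WT and 24531 to 32367 in C2 dKO libraries, which do not. In dKO cells 5 of the 10 markers were higher and 0 lower in C1 (4 and 3 without C1 WT replicate 3, a library described below), and 5 were higher and 1 lower in C2. Of all tested genes, 17.1% were higher and 19.9% lower in C1, and 17.4% and 20.1% in C2. The part of these shifts in the changes given below was not tested. Of the 8 hepatocyte markers, Alb, Apoa1, Ttr, Fgb and Serpina1a had no read in any library and the other 3 summed to 37.8 to 235. Markers of erythroid cells summed to 3.06 to 23.8 and those of stroma to 170 to 583. Single markers of these lists differed between dKO and WT cells. Pdgfrb, a receptor of mesenchymal cells, was higher in dKO cells by 2.32 in C1 and 4.68 in C2 on the log2 scale (limma, adjusted p = 3.6e-06 and 1.7e-09). Afp, a fetal liver protein, fell by 1.80 and 0.69 (adjusted p = 3.9e-05 and 0.042), and Trf, the transferrin gene, fell by 2.11 in C2 (adjusted p = 0.00066). Their part in the results was not tested. In bulk samples such as these, fewer cells of a type and less RNA per cell cannot be told apart.

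Cholesterol is built from acetyl-CoA through mevalonate, farnesyl diphosphate, squalene and lanosterol, and fatty acids are built from the same acetyl-CoA by carboxylation, chain assembly, elongation and desaturation. Both pathways are switched on by the SREBP transcription factors, which Scap carries to the Golgi for cleavage when membranes are low in sterols and which the Insig proteins hold back in the endoplasmic reticulum when sterols are plentiful. Oxysterols act through the liver X receptors, which induce the exporters Abca1 and Abcg1. Growing blood cells need the pathways to make membranes, and macrophages are known for their sterol efflux.

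SREBP proteins bind sterol regulatory elements beside sites for NF-Y and Sp1, so the windows before the start sites are shown for 5 members that the results below turn on: Hmgcs1 and Lss of the synthesis pathway, the regulator Insig1, the elongase gene Elovl6 and the exporter gene Abca1. The sequences are from RefSeq on GRCm38.p6 (mm10). They run 5′ to 3′ in the direction of the gene and end at its start site, or earlier where the GENCODE vM21 annotation places an exon. Capitals mark matches on either strand to TCACNCCAC (sterol regulatory element), CCAAT (NF-Y), GGGCGG (Sp1) or TTGCNNAA (C/EBP).

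Hmgcs1 (chr13:119690101-119690350, + strand): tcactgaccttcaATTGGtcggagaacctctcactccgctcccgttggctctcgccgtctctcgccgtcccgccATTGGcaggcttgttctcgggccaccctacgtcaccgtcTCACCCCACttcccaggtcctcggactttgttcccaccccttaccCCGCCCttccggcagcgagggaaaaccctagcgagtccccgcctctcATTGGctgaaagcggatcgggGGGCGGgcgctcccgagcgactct
Lss (chr10:76531355-76531587, + strand): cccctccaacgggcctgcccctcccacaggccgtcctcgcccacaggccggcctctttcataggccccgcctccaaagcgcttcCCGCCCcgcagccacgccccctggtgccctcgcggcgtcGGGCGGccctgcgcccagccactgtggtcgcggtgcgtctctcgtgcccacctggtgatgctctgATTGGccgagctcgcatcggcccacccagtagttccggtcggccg
Insig1 (chr5:28071162-28071362, + strand): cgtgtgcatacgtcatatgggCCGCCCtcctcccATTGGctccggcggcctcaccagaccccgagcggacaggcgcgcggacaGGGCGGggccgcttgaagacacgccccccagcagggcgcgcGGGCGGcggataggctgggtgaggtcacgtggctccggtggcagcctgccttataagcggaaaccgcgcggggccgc
Elovl6 (chr3:129532136-129532354, + strand): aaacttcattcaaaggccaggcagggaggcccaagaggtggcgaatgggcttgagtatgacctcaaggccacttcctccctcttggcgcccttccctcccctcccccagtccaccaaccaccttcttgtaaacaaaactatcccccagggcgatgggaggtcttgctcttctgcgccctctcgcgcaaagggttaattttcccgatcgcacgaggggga
Abca1 (chr4:53159896-53160145, - strand): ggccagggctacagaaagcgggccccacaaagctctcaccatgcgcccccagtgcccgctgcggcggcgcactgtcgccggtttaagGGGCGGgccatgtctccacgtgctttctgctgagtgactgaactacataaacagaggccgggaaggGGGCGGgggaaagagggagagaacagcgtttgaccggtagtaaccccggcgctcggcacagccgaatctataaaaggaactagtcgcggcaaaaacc

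RefSeq windows of 300 bases, from 250 before the start site to 50 after it, were found for 28 of the 36 genes. CCAAT stood in those of 14 of the 15 matched enzymes of cholesterol synthesis, which is 93.3%, against 43.7% of the 9415 matched genes among those tested and 41.1% of all 27025 genes with a window. GGGCGG also stood in 14 of the 15, against 68.2% and 38.2%. TCACNCCAC was found in 1 of the 28 matched members, Hmgcs1, and in 1.36% of the tested genes. TTGCNNAA was found in 2 of the 28, Dhcr7 and Nsdhl, and in 10.3% of the tested genes. The Nsdhl match shares bases with a CCAAT match, and no other matches to different motifs overlapped. A gene with several start sites had several windows and so more chances of a match. Of the printed windows, that of Elovl6 holds no match to any of the 4 motifs.

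Before the groups are compared, 1 library needs to be described, because it stood apart in the genes of this pathway. In replicate 3 of the C1 WT cells, 33 of the 36 members lay below both other C1 WT libraries, with a median of 55.2% of their mean. Over all genes tested, 37.3% lay below both and 37.1% above both, so the library was not low in general. The gap was widest in the desaturases. Scd2, which places a double bond into stearoyl-CoA, had 21475, 21767 and 3318 normalized reads in replicates 1, 2 and 3 of C1 WT. Its paralog Scd1 had 45.5, 92.0 and 1.02. Fads2, which desaturates polyunsaturated fatty acids, had 203, 343 and 19.4. All 9 fatty acid genes and 17 of the 18 cholesterol enzymes were below both other libraries, and the exception among the enzymes, the sterol isomerase gene Ebp, was at 110.1% of their mean. Insig1, a direct SREBP target, was at 43.8%, Srebf1 at 46.0%, and Lss, which closes the sterol ring, at 37.4%. The sensor Scap was at 115%.

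**Figure D1:**
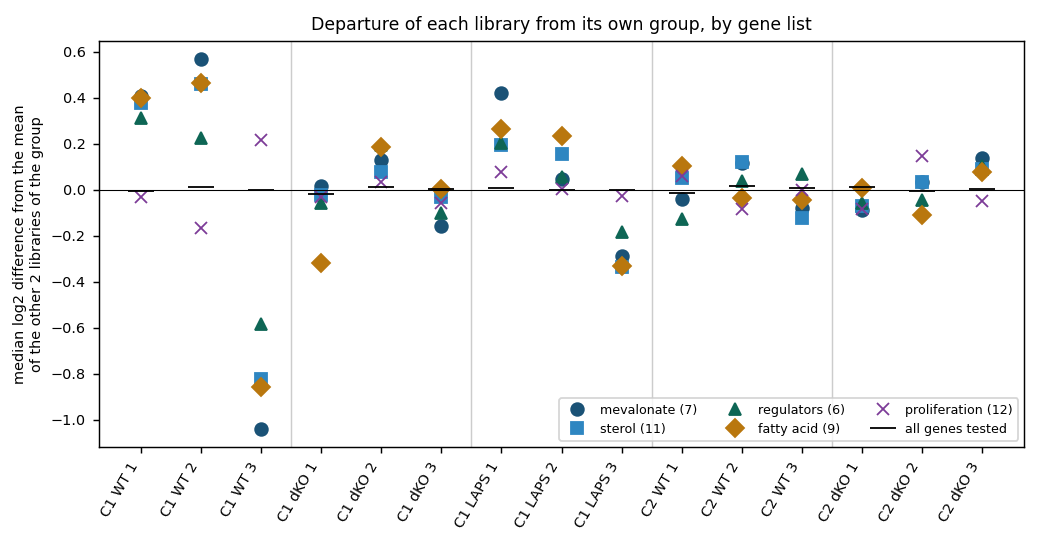
Median log2 difference of each of the 15 libraries (horizontal axis) from the mean of the other 2 libraries of its group, over 4 role lists, a list of proliferation genes and all genes tested. C1 WT replicate 3 sits at -1.04 for the mevalonate list, -0.82 for the sterol list and -0.86 for the fatty acid list, while all genes tested stay near 0 in every library.

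The departure of C1 WT replicate 3 had a median of -0.87 on the log2 scale over the 18 cholesterol enzymes, and the other libraries ran from -0.31 to 0.50, the highest 2 being the C1 WT libraries it is compared with. Proliferation genes departed by a median of 0.22 and myeloid markers by -0.13 in that library. It had 767 genes that departed by more than 2-fold from the mean of the other 2 libraries, 589 of them lower, against 279 to 577 in the other libraries. Replicate 3 also lay below its group in 15 of the 18 cholesterol enzymes in C1 dKO, 17 in dKO-LAP* and 17 in C2 WT cells. The medians there were smaller, at -0.07, -0.31 and -0.10, and in C2 dKO cells 3 enzymes lay below. What set C1 WT replicate 3 apart was not tested. Since it enters every comparison with C1 WT cells and the spread shared by all groups, the counts of members in each comparison are given with and without it.

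The WT cells of the clones differed in these genes before any deletion. In C2, 29 of the 36 were higher than in C1 and 2 were lower (limma, adjusted p under 0.05), against 19.7% of all tested genes higher and 21.3% lower. When C1 WT replicate 3 was left out, 22 were higher and 2 lower, against 17.1% and 18.9%. The 29 comprised 16 of the 18 cholesterol enzymes, 5 of 6 regulators, 7 of 9 fatty acid genes and the liver X receptor gene Nr1h3. The median difference of the members was 0.65 on the log2 scale, and 0.39 without that library, against -0.01 and 0 over all genes tested. A fit of the WT groups alone called 17 higher. The clones come from different mice, so clone and animal cannot be told apart.

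Scd1 showed the widest gap between the clones. Its level in C2 WT cells was 2002, 2008 and 1962 normalized reads, and no C1 library of any genotype had more than 92.0. The WT groups differed by 6.60 ± 0.99 on the log2 scale (limma, adjusted p = 5.7e-05), or by 4.92 (adjusted p = 5.2e-06) without C1 WT replicate 3. Scd1 and Scd2 lie next to each other on chromosome 19, at 44394455 to 44407879 and 44293674 to 44306864. How reads of any near-identical stretches were counted is not known. Scd2 was the far more abundant of the pair in every library. Its share of the pair left 0.221% ± 0.195 (SD, n = 3) to Scd1 in C1 WT cells and 6.17% ± 0.581 in C2 WT cells. Scd2 had 27546, 30826 and 32975 normalized reads in C2 WT cells, 1.39 ± 0.49 above C1 on the log2 scale (adjusted p = 0.032) but 0.49 (adjusted p = 0.042) without that library. That call was lost when any single C2 WT library was left out (adjusted p = 0.057, 0.073 and 0.081).

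Fads2 was also higher in C2, with 1395, 1359 and 1389 normalized reads in C2 WT cells, 3.62 ± 0.68 above C1 on the log2 scale (adjusted p = 0.00046) and 2.38 (adjusted p = 7.7e-06) without C1 WT replicate 3. The 3 sterol and mevalonate enzymes with the largest difference were Lss, Tm7sf2 and Pmvk. Lss had 1489.8, 1692 and 1506 normalized reads in C2 WT cells against 840.3, 899 and 325 in C1 WT cells, a difference of 1.32 (adjusted p = 0.0011), or 0.84 without that library. Tm7sf2, a sterol reductase, had 445, 442 and 363 against 223, 229 and 124, a difference of 1.16 (adjusted p = 0.00036), or 0.87. Pmvk, the phosphomevalonate kinase, had 931, 1171 and 931 against 512, 604 and 301, a difference of 1.15 (adjusted p = 0.00046), or 0.85. In these 3 genes every C2 WT library lay above every C1 WT library. Of the exons of Tm7sf2, 12.1% of the bases are shared with Vps51 on the same strand, so part of its reads is uncertain.

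The exporters went the other way. Abca1, the transporter that loads cholesterol onto lipid-poor apolipoproteins, had 140.5, 307 and 82.5 normalized reads in C1 WT cells and 3.98, 6.29 and 9.16 in C2 WT cells. The difference was -4.42 ± 0.47 on the log2 scale (adjusted p = 1.6e-06). Abcg1, which passes cholesterol to HDL, had 721, 795 and 419.8 and 184, 246 and 289.5, a difference of -1.39 ± 0.27 (adjusted p = 0.00061). Nr1h3, which encodes the liver X receptor LXRα, was higher in C2, with 9.37, 11.7 and 10.2 normalized reads in C1 WT cells against 51.8, 65.0 and 81.5 in C2 WT cells (2.53 ± 0.63, adjusted p = 0.0042). All 3 calls held without C1 WT replicate 3. Nr1h3 would not have passed the filter without the C2 WT libraries, so its p-value is no independent support. Nr1h2, the gene of the other liver X receptor, had 714, 870 and 681 normalized reads in C1 WT and 755, 968 and 887 in C2 WT cells.

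**Figure D2:**
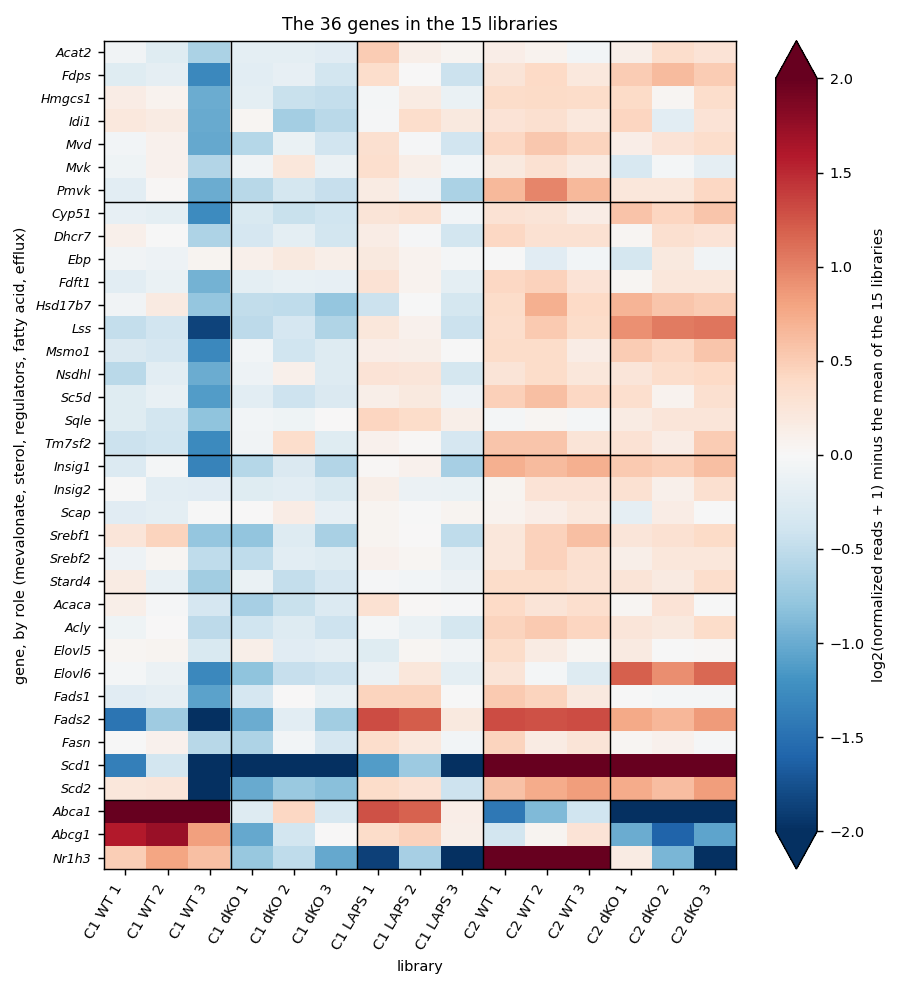
log2(normalized reads + 1) of the 36 genes (rows, by role) in the 15 libraries (columns), each gene relative to its mean over the libraries, with the colour scale ending at 2 in both directions. C1 WT replicate 3 lies below the other C1 WT libraries in 33 rows, the C2 libraries are high in most synthesis genes, and Abca1 and Abcg1 are highest in C1 WT cells.

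The dKO and WT cells were then compared in each clone. In C1, 3 of the 36 members were higher in dKO than in WT cells (Sqle, Nsdhl and Tm7sf2) and 3 were lower (Abca1, Abcg1 and Acaca), against 17.1% of all tested genes higher and 19.9% lower. Without C1 WT replicate 3, 1 was higher (Sqle) and 15 were lower, against 16.8% and 20.1%. The median change of the members was -0.05 on the log2 scale with all libraries and -0.30 without that library, and that of all genes was -0.01 in both. Of 6 members called with all libraries, 4 kept the call without it, namely Sqle, Abca1, Abcg1 and Acaca. In C2, 1 member was higher in dKO cells (Elovl6) and 3 were lower (Abca1, Abcg1 and Nr1h3), against 17.4% and 20.1% of all tested genes. When C1 WT replicate 3 was left out of the spread shared by all groups, an alternative chosen after seeing the data and called the narrower spread here, the C2 changes stayed the same but 4 were called higher and 7 lower, against 18.3% and 21.4%. With all libraries, limma and edgeR called Abca1 and Abcg1 lower in both clones, and DESeq2 called Nr1h3 lower in both as well.

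**Figure D3:**
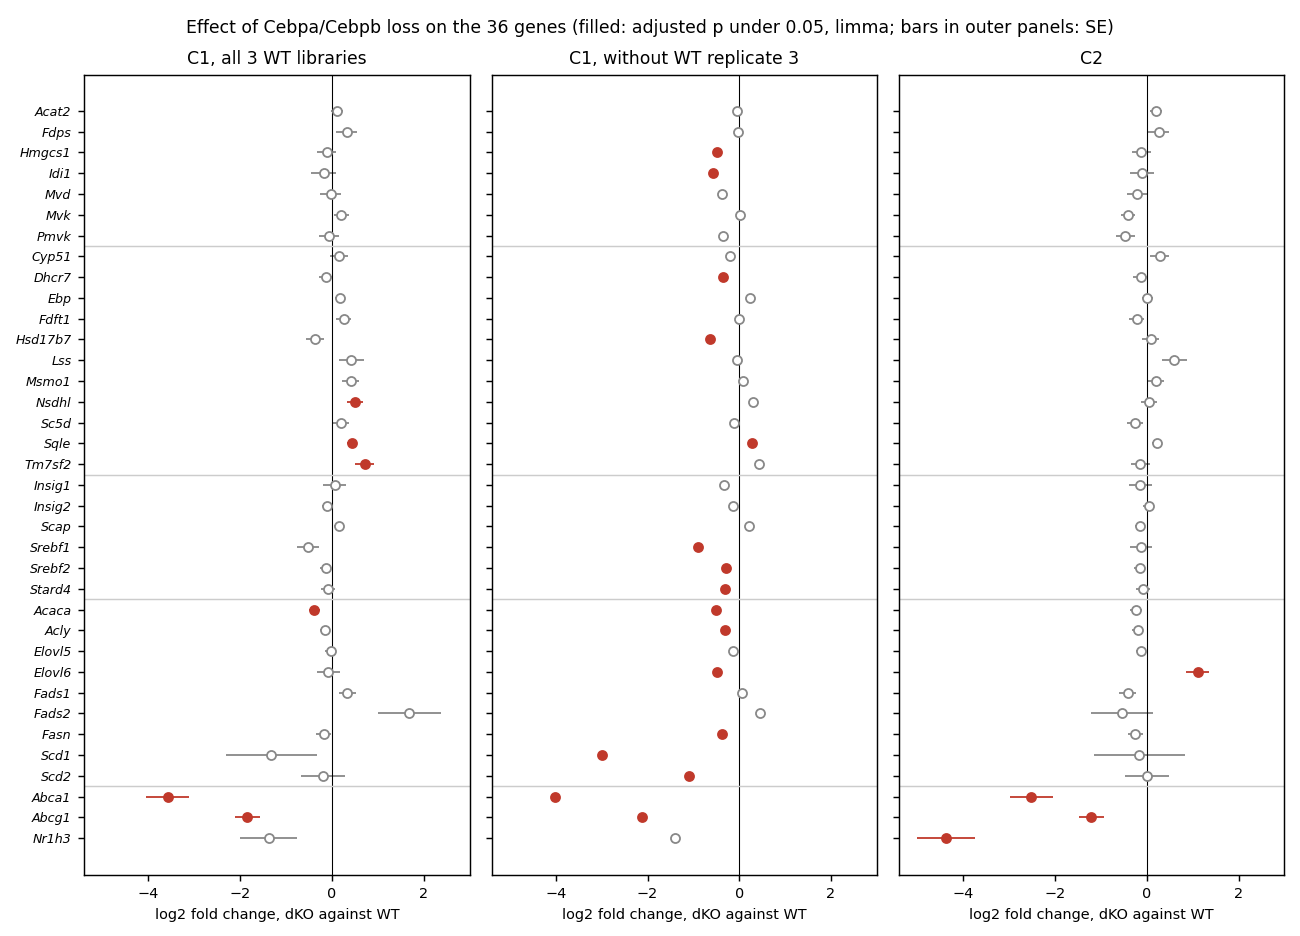
log2 fold change of dKO against WT cells for the 36 genes (vertical axis, by role) in C1 with all 3 WT libraries, in C1 without WT replicate 3 and in C2. Filled points passed an adjusted p of 0.05 (limma), and bars in the outer panels are SE. In C1 with all libraries Fads2 lies at 1.69 and Scd1 at -1.32, neither called, 13 genes besides the exporters are called lower in C1 without that library, and Elovl6 is higher in C2.

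Among the 7 mevalonate genes no change passed the limma test in either clone, where 17.1% and 17.4% of all tested genes were higher and 19.9% and 20.1% lower. At an unadjusted p under 0.05, 0 changed in C1 and 2 were lower in C2, edgeR called 0 in either clone, and DESeq2 called 1 lower in C2. Acat2, Hmgcs1, Mvk, Pmvk, Mvd, Idi1 and Fdps changed by -0.18 to 0.32 in C1 and by -0.46 to 0.26 in C2. Without C1 WT replicate 3, Hmgcs1, which makes HMG-CoA and whose start window is printed above, fell by 0.48 on the log2 scale in C1 dKO cells (adjusted p = 0.0033). Its level was 1786, 1688 and 815 normalized reads in the C1 WT libraries and 1404, 1183 and 1157 in the dKO libraries, so the dKO values lie between those of WT replicate 3 and those of the others. Idi1, the isopentenyl diphosphate isomerase, fell by 0.58 in the same fit (adjusted p = 0.03). In C2 the corresponding changes of these genes were -0.12 and -0.11, neither called. Mvk and Pmvk, the kinases of mevalonate and phosphomevalonate, were lower in C2 dKO cells by 0.40 and 0.46 on the log2 scale, which did not pass the test with all libraries but did with the narrower spread (adjusted p = 0.052 and 0.1 with all libraries, 0.014 and 0.028 without C1 WT replicate 3). A fit of the C2 groups alone called both (adjusted p = 0.016 and 0.017), and Mvk was also called by DESeq2, with the replicate block and without C2 dKO replicate 2 (adjusted p = 0.049, 0.026 and 0.049). Parts of the exons of Fdps (26.7%, same strand), Hmgcs1 (12.1%, opposite strand) and Idi1 (9.22%, opposite strand) overlap other genes, so some of their reads are uncertain.

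In the 11 sterol genes 3 rose in C1 dKO cells and none passed the limma test in C2, where 1 was higher at an unadjusted p under 0.05 and edgeR and DESeq2 called 0. Of all tested genes, 17.1% were higher in C1 and 17.4% in C2. Sqle, the squalene epoxidase, had 1539, 1399.8 and 1038 normalized reads in C1 WT cells and 1755, 1712 and 1832 in dKO cells. It rose by 0.43 ± 0.11 on the log2 scale (adjusted p = 0.0073) and by 0.27 (adjusted p = 0.025) without C1 WT replicate 3, every dKO library lying above every WT library. A fit of these groups alone did not call it (adjusted p = 0.063). In C2 it went from 1769.7, 1863 and 1767 to 2040.0, 2148 and 2139.9, again with no overlap, a difference of 0.23 ± 0.11 (adjusted p = 0.13, and 0.029 with the narrower spread). Tm7sf2 had 288, 384 and 254 normalized reads in C1 dKO cells, 0.71 ± 0.21 above WT (adjusted p = 0.015). Nsdhl, a sterol dehydrogenase, changed by 0.50 ± 0.18 (adjusted p = 0.036). Both calls were lost when single libraries were left out. Without C1 WT replicate 3, Tm7sf2 and Nsdhl were 0.42 (adjusted p = 0.068) and 0.30 (adjusted p = 0.17). Without C1 dKO replicate 2 their adjusted p was 0.081 and 0.14, and for Nsdhl it was 0.07 without C1 dKO replicate 1 and 0.069 without C1 WT replicate 1.

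A pair of sterol genes was lower in C1 only when WT replicate 3 was left out, Hsd17b7, a ketosteroid reductase of the pathway, by 0.65 (adjusted p = 0.0019) and Dhcr7, the last reductase of the 7-dehydrocholesterol branch, by 0.35 (adjusted p = 0.041). Lss had 1489.8, 1692 and 1506 normalized reads in C2 WT and 2212, 2421 and 2475 in C2 dKO cells, so that the groups did not overlap. Its difference was 0.60 ± 0.27 (adjusted p = 0.098), and the adjusted p was 0.0018 with the narrower spread. In the same fit Cyp51, the lanosterol demethylase, was called higher in C2 dKO cells (0.28, adjusted p = 0.016) and Sc5d, a desaturase, lower (-0.26, adjusted p = 0.04). Fdft1, Msmo1 and Ebp were called in neither clone under either fit.

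None of the 6 regulators passed the limma test in either clone with all libraries, edgeR and DESeq2 called 0 as well, and 1 was lower in C1 and 0 changed in C2 at an unadjusted p under 0.05. The shares of all tested genes were 17.1% higher and 19.9% lower in C1, and 17.4% and 20.1% in C2. Srebf1, which codes for the SREBP-1 forms that favour fatty acid genes, had 2429.8, 2793 and 1201 normalized reads in C1 WT, 1195, 1719 and 1315 in C1 dKO and 2145, 2065 and 1443 in dKO-LAP* cells. It had 2412, 2834 and 3119 in C2 WT and 2446, 2546 and 2669.7 in C2 dKO cells. The dKO libraries of C1 thus sat near or above WT replicate 3 and under WT replicates 1 and 2, and in C2 the groups overlapped. The change in C1 was -0.53 ± 0.24 (adjusted p = 0.097), and -0.90 (adjusted p = 0.00057) without that library, against -0.12 in C2.

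Srebf2, whose product favours cholesterol genes, moved less. It had 3520.3, 3853 and 2648 normalized reads in C1 WT, 2660.3, 3248 and 3154 in C1 dKO and 4009, 3884 and 3343 in dKO-LAP* cells, and 4429.6, 5167 and 4723 and 4096, 4400.4 and 4411 in C2 WT and dKO cells. Its change in C1 was -0.13, and -0.29 (adjusted p = 0.035) without C1 WT replicate 3. Insig1 had 1198, 1407 and 571 normalized reads in C1 WT, 966, 1178 and 959 in C1 dKO and 1472, 1527 and 908 in dKO-LAP* cells. In C2 it had 2353, 2229 and 2351 and 2066, 2015 and 2199, more than in any C1 library. Scap varied less, with 737, 754 and 856 in C1 WT, 869.8, 957 and 770.5 in C1 dKO, 893, 856 and 901 in dKO-LAP*, 906, 945 and 999.5 in C2 WT and 761, 955 and 858 in C2 dKO cells. Its dKO changes of 0.14 and -0.15 were not called, and 13.2% of its exon bases are overlapped on the opposite strand. Stard4, a carrier of cholesterol inside the cell, was called lower in C1 without that library (-0.32, adjusted p = 0.024), and Insig2 was called in neither clone.

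Among the fatty acid genes, Elovl6 behaved differently in the clones. This elongase lengthens palmitate to stearate. It had 796, 757 and 334 normalized reads in C1 WT and 471, 595 and 614 in C1 dKO cells, which overlap. In C2 it had 979.9, 796 and 684 in WT and 1891, 1571 and 1819 in dKO cells, where every dKO library lay above every WT library. The rise in C2 was 1.11 ± 0.25 on the log2 scale (adjusted p = 0.0022), and it was called in all 6 fits that left out 1 library each and under all 8 alternatives. The effect in C2 exceeded that in C1 by 1.19 ± 0.35 (adjusted p = 0.018). That difference was 1.59 (adjusted p = 4.4e-05) without C1 WT replicate 3, and its adjusted p was 0.052 without C1 WT replicate 1. Its relative Elovl5, which elongates polyunsaturated fatty acids, was called in none of the 6 comparisons with all libraries (quantile normalization called it higher in C2 WT than in C1 WT cells, adjusted p = 0.047), and the share of Elovl6 in the reads of the pair was 33.3% ± 1.51 (SD, n = 3) in C2 WT and 54.1% ± 1.56 in C2 dKO cells, and between 22.5% and 39.8% in the C1 libraries.

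**Figure D4:**
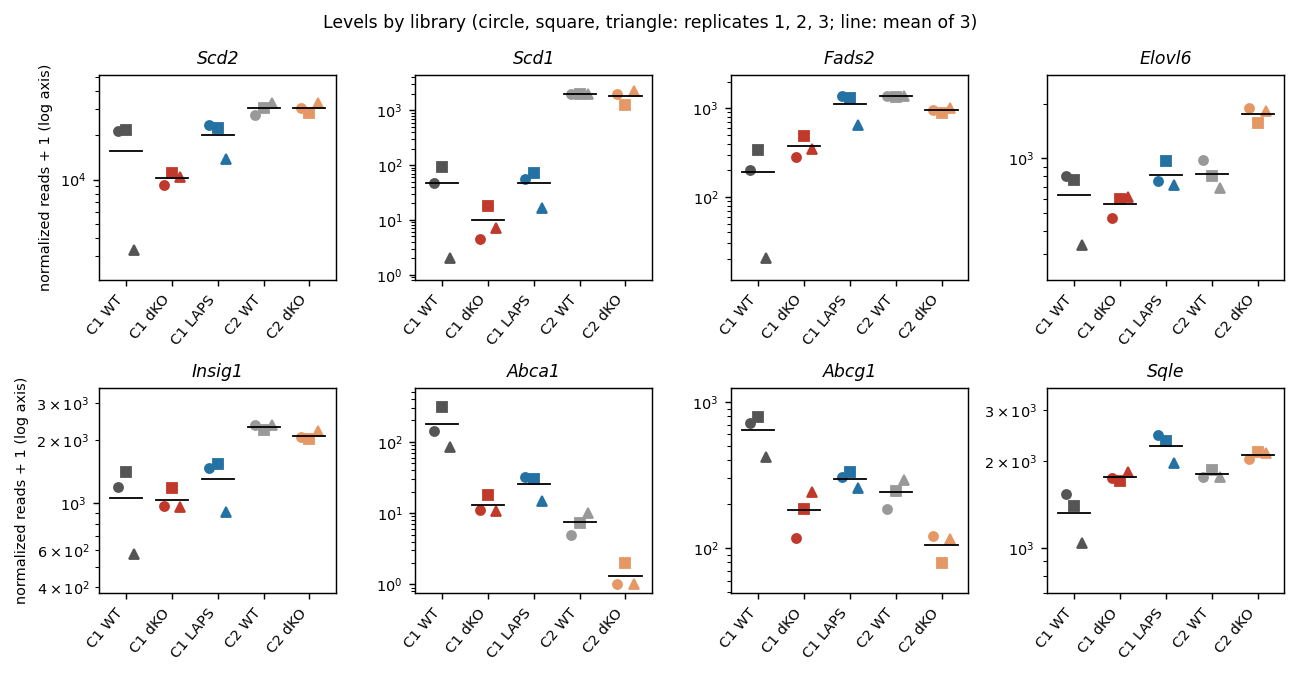
Normalized reads + 1 (log axis, with its own range in each panel) of 8 of the genes in the 5 groups; circles, squares and triangles are replicates 1, 2 and 3, and lines are means of 3. C1 WT replicate 3 is the lowest C1 WT library in every panel, Elovl6 is highest in C2 dKO cells, and every C1 dKO library of Sqle lies above every C1 WT library.

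Scd2 and Scd1 in C1 show how far the reading depends on WT replicate 3. Scd2 had 9121, 11052 and 10327 normalized reads in C1 dKO cells, above WT replicate 3 and below the other 2 WT libraries. Its change was -0.19 ± 0.49 (adjusted p = 0.79) with all libraries and -1.09 (adjusted p = 0.00018) without that library. In C2 dKO cells Scd2 had 30646, 28165 and 32931, a change of 0.01 (adjusted p = 1). Scd1 had 3.4, 16.8 and 6.18 in C1 dKO cells, a change of -1.32 ± 0.99 (adjusted p = 0.32) or -2.99 (adjusted p = 0.0007) without that library, and 1999, 1243 and 2269 in C2 dKO cells, where it changed by -0.16. edgeR and DESeq2 on the recovered reads called Scd1 lower in C1 with all libraries (adjusted p = 0.048 and 0.045).

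Fads2 had 281, 487 and 348 normalized reads in C1 dKO cells and 951, 890.4 and 1015 in C2 dKO cells. It was 1.69 ± 0.68 above WT in C1 (adjusted p = 0.063), or 0.45 without WT replicate 3 (adjusted p = 0.043 and 0.0064 without WT replicate 1 or 2), and -0.54 in C2 (adjusted p = 0.57), although every C2 dKO library lay under every C2 WT library. Acaca, the acetyl-CoA carboxylase that commits carbon to fatty acids, fell in C1 by 0.38 (adjusted p = 0.026), with 1321 ± 206 normalized reads in WT and 1012 ± 139 in dKO cells (SD, n = 3). This call was kept without WT replicate 3 (adjusted p = 0.004) and lost without WT replicate 1 or 2 or dKO replicate 1 or 2 (adjusted p = 0.13, 0.073, 0.12 and 0.053). Fasn, the synthase itself, and Acly, which makes cytosolic acetyl-CoA, were called lower in C1 only without WT replicate 3, by 0.38 (adjusted p = 0.048) and 0.32 (adjusted p = 0.012). Elovl6 was also called lower there (-0.48, adjusted p = 0.025). Fads1, the neighbour of Fads2, was not called in C2 with all libraries (-0.42, adjusted p = 0.097) and was called with the narrower spread, in a fit of the C2 groups alone and with the replicate block (adjusted p = 0.013, 0.013 and 0.048).

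The exporters fell in both clones. Abca1 had 140.5, 307 and 82.5 normalized reads in C1 WT and 10.2, 16.8 and 9.71 in C1 dKO cells, and fell by 3.58 ± 0.47 on the log2 scale (adjusted p = 2e-05). In C2 it had 20 reads in the WT libraries together and 1 in the dKO libraries, a ratio of 19.1 with an exact 95% interval of 3.06 to 793 that covers counting error only (adjusted p = 0.00057). Abcg1 had 721, 795 and 419.8 in C1 WT and 117, 185 and 240.1 in C1 dKO cells, a change of -1.84 ± 0.27 (adjusted p = 5.9e-05). In C2 it went from 184, 246 and 289.5 to 119, 77.8 and 114, a change of -1.21 ± 0.27 (adjusted p = 0.0023). The groups did not overlap for either gene in either clone, and each of these 4 calls was made in all 6 fits that left out 1 library and under all 8 alternatives. Nr1h3 went from 51.8, 65.0 and 81.5 to 7.32, 2.92 and 0 in C2, a change of -4.37 ± 0.63 (adjusted p = 5.5e-05). This fall is measured from C2 WT, the group without which Nr1h3 would not have passed the filter, so its p-value is no independent support. In C1 its few reads went from 9.37, 11.7 and 10.2 to 3.4, 4.2 and 2.65 (-1.38 ± 0.63, adjusted p = 0.1), which did not pass the limma test although the groups did not overlap. DESeq2, a pseudocount of 5 and a fit of the C1 WT and dKO groups alone called it lower (adjusted p = 0.039, 0.028 and 0.0058), and edgeR did not (0.062). Nr1h2 had 844, 1023 and 949 normalized reads in C1 dKO and 764, 712.5 and 793 in C2 dKO cells.

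The effects of the deletion were also compared between the clones in 1 fit. Of the 36 members, 1 had a higher effect in C2 than in C1 (Elovl6) and 4 a lower one (Nr1h3, Tm7sf2, Fads1 and Mvk), against 15.1% and 14.3% of all tested genes. Without C1 WT replicate 3, 7 were higher (Elovl6, Scd1, Scd2, Srebf1, Cyp51, Hsd17b7 and Lss) and 1 lower (Nr1h3), against 15.6% and 14.2%. Scd2 then differed by 1.10 (adjusted p = 0.0027) and Srebf1 by 0.78 (adjusted p = 0.016), against 0.20 and 0.41 with all libraries. Elovl6 and Nr1h3 were the members called in both fits.

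LAP* was added back in C1, and its comparisons share the C1 dKO or C1 WT libraries with the one above. Against dKO cells, 1 of the 36 members was higher (Acaca) and none was lower by limma, against 1.43% and 3.03% of all tested genes. At an unadjusted p under 0.05, 12 were higher and 0 lower, edgeR called 1 and 0, and DESeq2 3 and 0. The median difference of the members was 0.33 on the log2 scale against 0 over all genes, 33 of the 36 being above 0. With C1 WT replicate 3 left out of the shared spread, 12 were called higher and none lower, against 2.04% and 3.7%: 7 of the 9 fatty acid genes (Acaca, Elovl6, Fads1, Fads2, Fasn, Scd1 and Scd2) and 5 of the 18 cholesterol enzymes (Acat2, Cyp51, Hmgcs1, Sc5d and Sqle). The levels compared are the same in both fits, and only the spread differs.

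Acaca had 869, 1022 and 1146 normalized reads in C1 dKO cells and 1701, 1413 and 1356 in dKO-LAP* cells, a rise of 0.56 ± 0.13 (adjusted p = 0.018) with no overlap. Its adjusted p was 0.08 and 0.059 without dKO replicate 1 or 2 and 0.069 without dKO-LAP* replicate 1. Scd2 had 23647, 22459.6 and 13743 in dKO-LAP* cells, every library above the dKO libraries (0.94 ± 0.49, adjusted p = 0.33, and 0.0029 with the narrower spread). Fads2 had 1394, 1309.9 and 645, again above every dKO library (1.54 ± 0.68, adjusted p = 0.24 and 0.0024). Scd1 had 53.8, 71.0 and 15.5 and overlapped the dKO libraries. In all of these, replicate 3 of the dKO-LAP* cells was the lowest of its group, and over the 18 cholesterol enzymes that library departed from its group by a median of -0.31 on the log2 scale.

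Against WT cells, 11 members were higher in dKO-LAP* cells and the 3 efflux genes were lower, against 14.2% and 18.3% of all tested genes. When C1 WT replicate 3 was left out, 6 were higher (Acat2, Cyp51, Msmo1, Sqle, Fads1 and Fads2) and 4 lower, Srebf1 being the fourth, against 14.5% and 18.6%. A fit of these groups alone, which keeps that library, called 1 higher. Fads2 was 3.23 ± 0.68 above WT (adjusted p = 0.0016) and 2.0 (adjusted p = 6e-05) without that library, every dKO-LAP* library lying above every WT library. Sqle had 2458, 2352 and 1966 normalized reads, also above every WT library (0.78 ± 0.11, adjusted p = 5.9e-05, and 0.62 without it). The other 5 members called with all libraries and not without that one were Fdft1, Lss, Nsdhl, Sc5d and Tm7sf2, which lay 0.48 to 0.86 above WT with it. Their calls were also lost without dKO-LAP* replicate 1 or 2 (adjusted p of 0.053 to 0.15), and that of Cyp51 without replicate 2 (0.053).

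The exporters remained below WT with LAP*. Abca1 had 31.5, 29.5 and 13.7 normalized reads in dKO-LAP* cells, against 82.5 to 307 in WT cells (-2.66 ± 0.47, adjusted p = 0.00038). Abcg1 had 308, 329 and 259 (-1.06 ± 0.27, adjusted p = 0.0063). Nr1h3 had 5 reads in the 3 dKO-LAP* libraries together against 30 in the WT libraries, a ratio of WT to dKO-LAP* of 6.69 with an exact 95% interval of 2.57 to 22.1 for counting error (adjusted p = 0.0072). Against dKO cells the differences of Abca1 and Abcg1 were 0.92 ± 0.47 and 0.78 ± 0.27, and neither passed the test (adjusted p = 0.32 and 0.13), although every dKO-LAP* library of Abcg1 lay above every dKO library.

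Levels can be compared between genes only per length of transcript. In normalized reads per kb of merged exons, Scd2 was the highest of the 36 in every group, with 2840 ± 1934 (SD, n = 3) in C1 WT, 1861 ± 179 in C1 dKO and 5573 ± 500.4 in C2 WT cells. Acly came next in each of these groups, with 970.1 ± 182, 861 ± 53.7 and 1521 ± 56.7. The difference between Scd2 and Acly in C1 WT cells is within the spread of Scd2. Fasn followed in both C1 groups, with 546 ± 122 and 479 ± 92.4. In C2 WT cells Insig1 at 747 ± 23.0, Fasn at 734 ± 76.3 and Srebf2 at 664 ± 51.7 followed, and the first 2 of these do not differ beyond their spread. Abca1, Nr1h3 and, in C1, Scd1 had the lowest levels. Nr1h3 had 4.15 ± 0.476 in C1 WT and 26.3 ± 5.93 in C2 WT cells, Abca1 17.0 ± 11.2 and 0.625 ± 0.250, and Scd1 9.44 ± 9.30 in C1 WT cells.

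The cholesterol enzymes also varied together between samples of 1 group. After the mean of each group was removed, the median pairwise correlation of the 18 genes was 0.812 over the 15 libraries, against 0.001 over all pairs of tested genes. The C1 WT libraries carry much of this. Without them the median was 0.485 over 12 libraries, and in the 6 C2 libraries alone it was 0.322. For the 9 fatty acid genes the medians were 0.775, 0.528 and 0.145, and for the 12 proliferation genes 0.503, 0.191 and 0.526. These values describe libraries that share their reads' depth and a common group mean, and the sampling times behind them are not known.

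The mean standardized level of the 18 enzymes was followed across the 15 libraries. It stood at -2.22 SD in C1 WT replicate 3 and between -0.69 and 0.82 in the other 14, so this library weighs heavily in the correlations. The mean level was 0.45 to 0.82 in C2 and -2.22 to 0.56 in C1 libraries, so the difference between the clones enters the correlations too. Among the members, Fdft1, the squalene synthase, tracked it most closely (Pearson's r = 0.975, itself part of the mean, with 18.3% of its exon bases overlapped by Ctsb on the opposite strand and its reads uncertain to that extent), and Fads2 and Scd2, which are not, reached 0.945 and 0.943. Ebp (r = -0.23), Abcg1 (-0.40) and Abca1 (-0.57) ran against it. Outside the members the 5 genes most like it were Acss2, the cytosolic acetyl-CoA synthetase, with r = 0.950, Sult2b1, a sterol sulfotransferase, with 0.932, Gm3571 with 0.924, Plod3, a lysyl hydroxylase, with 0.923 and Pgap3, which remodels GPI anchors, with 0.911. Without C1 WT replicate 3, an alternative chosen after seeing the data, Sult2b1 ranked first of the non-members (r = 0.937 over 14 libraries), Acss2 was at 0.898 with rank 10, and Gm3571, Pgap3 and Plod3 had ranks 35, 67 and 164. Fdft1, Fads2 and Scd2 were then at 0.940, 0.874 and 0.871, and Ebp, Abcg1 and Abca1 at -0.26, -0.36 and -0.55. Sult2b1 had only 1.02 to 13.6 normalized reads per library, so its correlation is poorly measured. Acss2 had 54.9, 67.6 and 14.3 normalized reads in C1 WT and 196, 348 and 238 in C2 WT cells (2.71 ± 0.43, adjusted p = 8.9e-05), a difference of 2.04 without C1 WT replicate 3.

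Beyond the 36, 23 further genes of sterol and fatty acid handling were counted. In C1 dKO cells 0 were higher and 8 lower by limma (4 and 11 at an unadjusted p under 0.05), against 17.1% and 19.9% of all tested genes. In C2 3 were higher and 5 lower, against 17.4% and 20.1%. The counts were 1 and 12 in C1 without C1 WT replicate 3, and 4 and 5 in C2 with the narrower spread.

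Pparg, the nuclear receptor of lipid storage, fell in both clones. It had 1147, 1356 and 1339 normalized reads in C1 WT, 27.2, 38.8 and 47.7 in C1 dKO and 22.4, 30.4 and 26.4 in dKO-LAP* cells. In C2 it went from 362, 429.9 and 571 to 168, 134 and 161. The changes in dKO cells were -5.07 ± 0.20 (adjusted p = 3.7e-11) in C1, or -5.04 without C1 WT replicate 3, and -1.53 ± 0.20 (adjusted p = 2.1e-05) in C2. Acacb is the carboxylase form of the mitochondrial surface. In C2 it went from 26.9, 38.8 and 39.4 to 5.23, 5.83 and 3.22 (-2.65 ± 0.66, adjusted p = 0.0047), a call that 7 of 8 alternatives made. It had at most 3.69 in any C1 library. Acacb would not have passed the filter without the C2 WT libraries. The fall in C2 is measured from that group, so its p-value is no independent support.

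Proliferation was counted beside these lists. Of 12 proliferation genes, 0 were higher and 3 lower in C1 dKO cells by limma (1 and 3 at an unadjusted p under 0.05), against 17.1% and 19.9% of all tested genes, and 3 were higher and 2 lower in C2, against 17.4% and 20.1%. The counts were 1 and 2 in C1 without C1 WT replicate 3, and 4 and 2 in C2 with the narrower spread. Mcm6 and Mcm3 of the replicative helicase were higher in C2 dKO cells by 0.73 ± 0.08 (adjusted p = 2.3e-06) and 0.48 ± 0.09 (adjusted p = 0.00036). Ccnb1, the mitotic cyclin, was lower by 0.40 in C1 (adjusted p = 0.0011), or 0.32 without C1 WT replicate 3, and by 0.30 in C2 (adjusted p = 0.0081). The summed level of the list was 54463 to 56589 normalized reads in C2 WT and 59239 to 65927 in C2 dKO cells, and 57917 to 72030 in the C1 groups. The part of growth in the changes of the synthesis genes was not tested.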

How the data were processed

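The authors sequenced stranded, poly(A)-selected RNA, aligned reads to mm10 with STAR 2.5.3a, counted them per gene with HTSeq 0.10.0 and normalized them with DESeq2 1.26.0. The annotation and the strand setting of the counting are not given in the sources used here. The deposited signal is the read count divided by a size factor, called normalized reads. Of 18 columns, 3 match no sample and were not used. Whole reads were recovered for 100% of values (tolerance 0.1), and 22.4% to 26.2% of reads were not assigned to a gene.

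Members and gene lists were chosen with earlier results of these data known. Genes that reached 10 normalized reads in 3 or more libraries were fitted as log2(normalized reads + 1) with limma 3.58.1 (R 4.3.3, trended prior), 1 mean per group over 15 libraries, with two-sided p-values adjusted by Benjamini-Hochberg over 12673 genes. A call is an adjusted p under 0.05. Fold changes of low genes are understated on this scale. edgeR 4.0.16 and DESeq2 1.42.0 on recovered reads, 2 other pseudocounts (0.1 and 5), no filter, quantile normalization, only the groups compared, a replicate block and leaving out each library were alternatives. The fits were tested on simulated data. Values are given per library for members called with a log2 change of at least 1 and for Srebf1, Srebf2, Insig1 and Scap. Further genes shown in full were the leading calls of their lists. Lengths came from GENCODE vM21. Over all tested genes, same-numbered libraries did not deviate together (correlations of -0.32 to 0.30, over 0.1 in 5 of 30 pairs). Some genes of the further lists are not reported here.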

Additional observations from a re-analysis of the deposited data

Results flagged for a closer look

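For 5 of the 36 genes the effect of the deletion differed between the clones by a test of the difference itself (limma, dKO against WT in C2 minus the same in C1, adjusted over all genes tested), 1 of them higher and 4 lower in C2, against 15.1% and 14.3% of all tested genes. Elovl6 differed by 1.19 on the log2 scale, with changes of -0.08 in C1 and 1.11 in C2. Nr1h3 differed by -2.99, with few reads in C1, and the pseudocount of 0.1 and edgeR did not call it. It would not have passed the filter without the C2 WT libraries, which enter this difference. The differences of Tm7sf2 (-0.85), Fads1 (-0.75) and Mvk (-0.61) were not called without C1 WT replicate 3, where they were -0.56, -0.47 and -0.41 (adjusted p = 0.082, 0.066 and 0.097). These 3 were called in 5, 4 and 3 of the 12 fits that left out 1 library each, and Elovl6 in 11, the exception being the fit without C1 WT replicate 1.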

How the results depend on the processing

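Among the values of single genes, 3104 kept their side of the threshold, 128 lost and 80 gained a call. The sign changed in 127, of which 0 were called with all libraries and 0 under the alternative. Counts of members moved as follows. For dKO against WT in C1, 3 higher became 5 with quantile normalization and 0 with only the groups compared, and 3 lower became 5 with DESeq2. In C2, 1 higher became 5 with only the groups compared and 4 with the narrower shared spread, and 3 lower became 7, 7 and, with the replicate block, 5. For the difference between clones, 1 higher became 2 with a pseudocount of 5, and 4 lower became 1 with a pseudocount of 0.1, without the filter and with edgeR, and 2 with only the groups compared. For dKO-LAP* against dKO, 1 higher became 0 with only the groups compared, 3 with DESeq2 and 12 with the narrower spread. For dKO-LAP* against WT, 11 higher became 1, and for WT of C2 against C1, 29 became 17, both with only the groups compared. The cause was not tested.

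Leaving out each library gave, higher and lower, 1 to 5 and 2 to 15 (C1), 1 to 1 and 3 to 4 (C2), 0 to 7 and 1 to 5 (difference), 0 to 1 and 0 to 0 (dKO-LAP* against dKO), 5 to 13 and 3 to 4 (dKO-LAP* against WT), and 22 to 29 and 2 to 2 (WT of the clones). C1 WT replicate 3 gave the 15 and both 7 and 22. The replicate block moved no other count by over 1.5 times, and over all tested genes same-numbered libraries did not deviate together. Quantile normalization moved the share of all calls that were higher from 46.3% to 56.6% in C1 dKO cells and from 43.6% to 56.9% in dKO-LAP* cells against WT. With 3 libraries a group, changes of genes near 10 normalized reads, such as Nr1h3 in C1, are poorly measured.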
